A study of Mus musculus with 6 samples.

Results

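The genes described here carry carbon into and around the tricarboxylic acid (TCA) cycle of the mouse heart. They are 33 of the 37620 genes in the deposited count table, taken by name as a list of TCA cycle enzymes, the pyruvate carrier and pyruvate dehydrogenase complex, its kinases and phosphatases, the malate-aspartate shuttle and the enzymes of ketone oxidation. Each of the 33 was matched to 1 row, and each passed the filter on low counts that left 14738 genes for testing.

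RNA from the apex of the heart was sequenced in 6 libraries from C57/BL6J mice of wild-type (WT) genotype, 3 labelled vehicle preconditioning and 3 labelled Dexmedetomidine preconditioning. Every animal had 30 min of myocardial ischaemia, in which blood flow is stopped, and 120 min of reperfusion. Dexmedetomidine is a sedative that activates alpha-2 adrenergic receptors, and Yohimbine blocks them. In the drug group 10 µg/kg of Dexmedetomidine came 30 min after Yohimbine's vehicle, and 20 min before surgery. The vehicle group received the vehicles of Yohimbine and of Dexmedetomidine separately before the same surgery, with no interval given, and infusions in both groups went into a tail vein within 10 min. There was no group without ischaemia, so every value below is from a reperfused heart. The labels state no age. The comparison asks which of these transcripts differed when the drug had been given first.

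Gene counts summed to 42.7 to 56.6 M per library, and each member other than Pdk3 and Pdp2 had over 1000 reads in each library. Mitochondrially encoded genes took 22.01% to 25.2% of gene counts in the vehicle libraries, and 27.1%, 36.9% and 38.2% in Dexmedetomidine replicates 1, 2 and 3. The 12 cardiomyocyte markers (Myh6, Tnnt2, Ryr2 and the like) all passed the filter on low counts. Their levels in CPM (counts per 1000000 gene counts, with edgeR's scaling) summed to 57324 to 69690.2 after vehicle and 49274 to 56065 after Dexmedetomidine. Of the 12, 10 had a log2 fold change below 0, beside 49.7% of all genes tested. None passed the adjusted threshold used below, and 8 had an unadjusted edgeR p under 0.05, beside 21.5% of all genes tested. Fibroblast markers summed to 903 to 1014 and 1107 to 1329 CPM, endothelial markers to 1179.5 to 1295 and 1140.02 to 1191, and adipocyte markers stayed at or under 1.00 CPM, with Ucp1 at 0. In the fibroblast list 5 of 7 log2 fold changes were above 0, and in the endothelial list 4 of 8. Mural markers summed to 966 to 1079 and 1275 to 1449 CPM, although 4 of the 6 had a log2 fold change below 0 (median -0.22), while leukocyte (234 to 256 and 197 to 333), erythroid (412 to 643 and 392 to 723) and atrial markers (15.3 to 31.5 and 7.52 to 59.9) overlapped between groups. At the same unadjusted p were 4 of 7 fibroblast, 2 of 6 mural and 1 of 7 tested leukocyte markers. No endothelial, erythroid or atrial marker was. The part of these shifts in the values below was not tested. In such bulk tissue, fewer cells of a type and less RNA per cell cannot be told apart.

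The TCA cycle burns acetyl-CoA to carbon dioxide and hands the electrons to the respiratory chain. The heart makes most of its acetyl-CoA from fatty acids and the rest from pyruvate, lactate and ketone bodies, and it switches among them. Pyruvate dehydrogenase is the gate for carbohydrate: its kinases shut it by phosphorylation and its phosphatases open it. Because mitochondria do not take up cytosolic NADH, the malate-aspartate shuttle carries its electrons across the inner membrane.

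No member passed an adjusted p of 0.05 in edgeR's quasi-likelihood test, and no gene of the 14738 tested did (0%, smallest adjusted p 0.101). At an unadjusted p under 0.05 there were 5 members, 15.2% of the list against 21.5% of all genes tested. Of these, Idh2 and Pdk2 were lower after Dexmedetomidine (9.03% of all genes were lower at that p) and Dld, Sucla2 and Pdp1 higher (12.5% of all genes). DESeq2 called 1 member, Dld, against 9.43% of the genes it tested, and limma-voom with quality weights called 3 (Idh2, Dld and Sucla2) against 14.3%. The median log2 fold change of the members was -0.052, beside 0.0032 over all genes tested, and 20 of 33 were below 0, beside 49.7% of all genes. Fold changes were small, from -0.32 for Idh2 to 0.47 for Dld. For 27 of the 33 members the 95% interval lay within a 1.5-fold change either way, and the exceptions were Dld, Idh2, Pdk3, Pdk4, Pdp1 and Pdp2. Without vehicle replicate 3, edgeR called 1251 of 15048 genes (8.31%), and none of the members was among them.

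**Figure D1:**
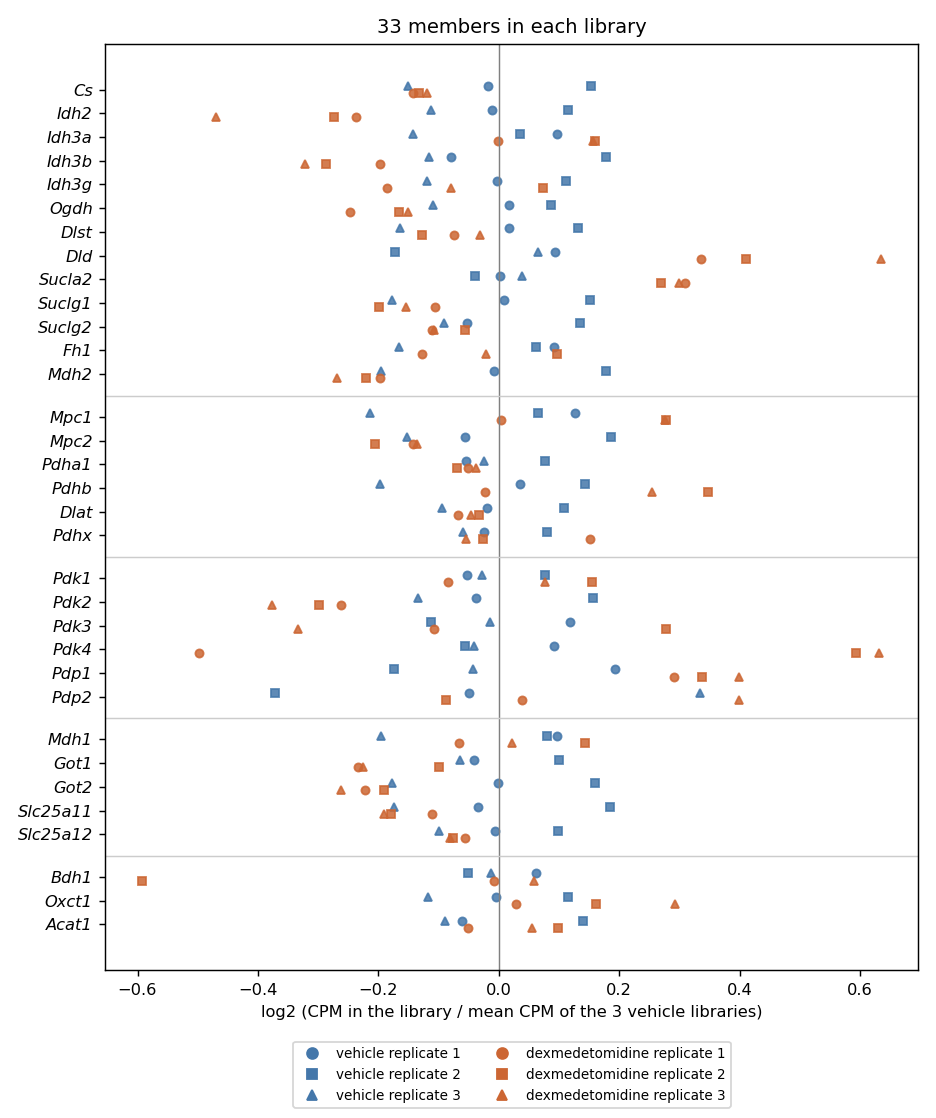
Each row is a member, in the role order used in the text, and each point is 1 library, plotted as log2 of its CPM over the mean of the 3 vehicle libraries (blue, vehicle; orange, Dexmedetomidine; circle, square and triangle for replicates 1, 2 and 3). The orange points lie wholly to the right for Dld, Sucla2 and Pdp1, wholly to the left for 7 members such as Idh2 and Pdk2, and on both sides of the blue points for Pdk4.

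Among the 13 enzymes of the cycle itself, 10 had a log2 fold change below 0 and 3 above. Citrate synthase (Cs, ENSMUSG00000005683) joins acetyl-CoA to oxaloacetate. Its enzyme activity, not measured here, is widely used as a gauge of mitochondrial content. The Cs transcript stood at 1218, 1371 and 1111 CPM in vehicle replicates 1, 2 and 3. Its values in replicates 1, 2 and 3 of the drug group were 1117, 1125 and 1136. The 3 Dexmedetomidine values were nearly equal and fell inside the vehicle range (log2 fold change -0.13, 95% interval -0.40 to 0.14, edgeR adjusted p = 0.562).

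Dihydrolipoamide dehydrogenase (Dld, ENSMUSG00000020664) reoxidises the lipoyl groups of both the oxoglutarate and the pyruvate dehydrogenase complex. It measured 343, 285 and 336 CPM after vehicle and 406, 427 and 499 after the drug. All 3 Dexmedetomidine libraries lay above all 3 vehicle libraries, a log2 fold change of 0.47 (SE 0.13, edgeR adjusted p = 0.112, DESeq2 adjusted p = 0.0414). With each library's trend with GC content and gene length removed, the value for Dld was on the other side of 0, at -0.12. Sucla2 (ENSMUSG00000022110), the ATP-forming beta subunit of succinate-CoA ligase, stood at 469, 455 and 481 CPM and then at 580.1, 564 and 576. Its groups were tight and apart, with a log2 fold change of 0.29 (SE 0.11, edgeR adjusted p = 0.160), and of -0.10 with the same trend removed. For the partners of Sucla2, the common alpha subunit Suclg1 had a log2 fold change of -0.15 and the GTP-forming beta subunit Suclg2 of -0.091, with overlapping groups and edgeR adjusted p of 0.512 and 0.692.

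Mitochondrial isocitrate dehydrogenase 2 (Idh2, ENSMUSG00000030541), which makes NADPH, was the member with the lowest fold change. It measured 1781, 1943 and 1659 CPM after vehicle and 1523, 1485 and 1295 after the drug, with no overlap (log2 fold change -0.32, SE 0.12, edgeR adjusted p = 0.173, and -0.12 with the trend removed). The NAD-linked isocitrate dehydrogenase of the cycle has 3 kinds of subunit, and their log2 fold changes were 0.11 for the catalytic Idh3a, -0.27 for Idh3b and -0.060 for Idh3g (SE 0.12 each). Only Idh3b had groups apart, and its exons overlap those of Nop56 on the other strand, so its reads could not be assigned with certainty. Ogdh, the decarboxylating subunit of the oxoglutarate dehydrogenase complex, was at -0.19 with groups apart, and its core subunit Dlst at -0.077. The fumarase Fh1 was at -0.014 (95% interval -0.29 to 0.26). Mdh2, which regenerates oxaloacetate, was at -0.23 with groups barely apart, since its lowest vehicle value was 997 CPM and its highest Dexmedetomidine value 995.

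Across the whole list, the 3 values of one group lay apart from the 3 of the other for 10 members, 7 lower (Idh2, Idh3b, Ogdh, Mdh2, Pdk2, Got1 and Got2) and 3 higher. That is 30.3% of the list, against 27.6% of all genes tested (12% lower, 15.6% higher), a share near the background. By role it was 46.2% of the 13 cycle enzymes, 33.3% of the 6 kinases and phosphatases and 40% of the 5 shuttle genes. For pyruvate entry and ketone oxidation it was 0%, and each role holds too few genes to set against the background.

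The 250 bases upstream of the annotated start are shown for 4 of the 6 cycle genes whose libraries separated by group, the higher Dld and Sucla2 and the lower Idh2 and Idh3b, to set the sequences of both directions side by side. They come from RefSeq on GRCm38.p6, which held a promoter for 30 of the 33 members, and run 5′ to 3′ on the gene's strand. Capitals mark matches on either strand to the GC box GGGCGG, the CCAAT box CCAAT, the ETS core CGGAAG, the NRF1 motif and the ERR element AAGGTCA, NRF1 and the ERR receptors being known regulators of mitochondrial genes.
Dld, chr12:31351472-31351721, minus strand: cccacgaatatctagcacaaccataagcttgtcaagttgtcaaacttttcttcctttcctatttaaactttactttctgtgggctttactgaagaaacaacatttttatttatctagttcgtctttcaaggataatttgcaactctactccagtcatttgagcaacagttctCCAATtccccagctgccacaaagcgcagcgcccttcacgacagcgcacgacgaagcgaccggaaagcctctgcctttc
Sucla2, chr14:73552536-73552785, plus strand: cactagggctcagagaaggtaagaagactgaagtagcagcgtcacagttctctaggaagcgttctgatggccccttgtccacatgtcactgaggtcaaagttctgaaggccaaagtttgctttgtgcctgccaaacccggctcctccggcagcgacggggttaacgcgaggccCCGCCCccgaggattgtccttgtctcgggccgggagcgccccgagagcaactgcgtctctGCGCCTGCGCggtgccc
Idh2, chr7:80115351-80115600, minus strand: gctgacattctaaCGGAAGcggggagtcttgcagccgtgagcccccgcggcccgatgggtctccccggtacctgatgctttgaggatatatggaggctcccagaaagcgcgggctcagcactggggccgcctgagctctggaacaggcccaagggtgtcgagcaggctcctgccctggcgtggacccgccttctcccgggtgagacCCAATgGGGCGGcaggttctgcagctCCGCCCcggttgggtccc
Idh3b, chr2:130284452-130284701, minus strand: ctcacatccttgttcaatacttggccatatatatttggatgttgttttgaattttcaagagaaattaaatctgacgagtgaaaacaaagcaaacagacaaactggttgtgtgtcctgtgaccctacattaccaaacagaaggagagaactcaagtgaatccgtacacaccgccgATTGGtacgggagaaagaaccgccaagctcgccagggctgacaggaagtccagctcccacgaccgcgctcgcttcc

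The 4 differ in base composition, with a GC content of 43.6% for Dld, 61.2% for Sucla2, 67.2% for Idh2 and 46.8% for Idh3b. The trend removed in the fits is with transcript GC content, 40.6% for Dld and 43.2% for Sucla2, and not with that of promoters. Dld and Sucla2 were higher only before that trend with transcript GC content and length was removed (-0.12 and -0.10 after). No motif was common to these 2 genes: Sucla2 held a GC box and an NRF1 motif, and Dld a CCAAT box alone. Idh2 held a pair of GC boxes, a CCAAT box and an ETS core, and Idh3b a CCAAT box. Ogdh and Mdh2, the separated cycle genes not shown, each held a GC box and an ETS core, and Ogdh also a CCAAT box. Over the members, GC boxes were found in 18 of 30 and CCAAT boxes in 17 of 30, beside 62.3% and 39.7% of 10767 tested genes with a promoter (32.7% and 33.8% of all 32851 promoters in the table). The ETS core was in 8 of 30 beside 27.0% of those tested genes (13.6% of all promoters). The NRF1 motif was in 1 of 30 (Sucla2) and the ERR element in 1 of 30 (Got1), beside 8.69% and 3.53% of tested genes (3.74% and 4.08% of all promoters). A match describes letters in this window and not a bound factor.

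Pyruvate enters mitochondria through a carrier of 2 subunits, Mpc1 and Mpc2. Mpc1 (ENSMUSG00000023861) measured 87.6, 83.9 and 69.2 CPM after vehicle and 80.4, 97.2 and 97.2 after the drug, with overlap (log2 fold change 0.19, edgeR adjusted p = 0.452). Mpc2 (ENSMUSG00000026568) measured 228, 269.7 and 213 and then 215, 206 and 216 CPM (log2 fold change -0.16, edgeR adjusted p = 0.497). The carrier subunits thus had values on opposite sides of 0, neither past the threshold. The gene table names a pseudogene of Mpc1 (Mpc1-ps), and of Got2 below (Got2-ps1), so reads of either gene that fit its copy equally would have been left out of the counts of uniquely aligned reads.

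Pdhb (ENSMUSG00000021748) is the beta subunit of the decarboxylase of the pyruvate dehydrogenase complex. Its values were 627, 676 and 534 CPM after vehicle and 603, 779 and 730.3 after the drug, where replicates 2 and 3 exceeded every vehicle library and replicate 1 did not (log2 fold change 0.20, 95% interval -0.11 to 0.52, edgeR adjusted p = 0.444). The alpha subunit Pdha1 (-0.052), the acetyltransferase core Dlat (-0.049) and the binding protein Pdhx (0.027) had log2 fold changes near 0, with SE of 0.11, 0.11 and 0.12. None of the 6 genes of pyruvate entry had groups apart, beside 27.6% of all genes tested, and 6 genes are too few to set against that share.

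Kinases and phosphatases set how much of the complex is active. Pdk4 (ENSMUSG00000019577), the kinase induced by fasting and fatty acids, measured 2189, 1975 and 1996 CPM in the vehicle libraries and 1454, 3099 and 3179 in Dexmedetomidine replicates 1, 2 and 3. Replicate 1 was thus below every vehicle library while replicates 2 and 3 were above every one, and the mean difference had a wide interval (log2 fold change 0.33, 95% interval -0.28 to 0.94, edgeR adjusted p = 0.517). The value without that replicate was 0.61, and without replicate 3 it was 0.15. Dexmedetomidine replicate 1 was also the library of its group with the lowest mitochondrial share, 27.1% against 36.9% and 38.2%, and the part of that difference in the Pdk4 values was not tested.

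Pdk2 (ENSMUSG00000038967), a widely expressed kinase, measured 434, 496 and 406 CPM after vehicle and 371, 362 and 343 after the drug. Its groups did not overlap (log2 fold change -0.31, SE 0.12, edgeR adjusted p = 0.178, and -0.067 with the GC and length trend removed). Pdk1, a target of hypoxia signalling, was at 0.052 (95% interval -0.21 to 0.32), and Pdk3 was scarce, at 2.20 ± 0.178 and 2.15 ± 0.471 CPM (SD, n = 3 each), so that its interval ran from -0.67 to 0.60. Of the phosphatases, the calcium-stimulated Pdp1 (ENSMUSG00000049225) measured 28.4, 22.02 and 24.1 CPM and then 30.4, 31.4 and 32.7, apart by group (log2 fold change 0.34, SE 0.13, edgeR adjusted p = 0.181, and -0.40 with the trend removed). Pdp2 overlapped between groups, at 0.13 (SE 0.21).

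Per length, the kinases far outweighed the phosphatases. Summed CPM per kilobase was 750.5 ± 32.1 for the 4 kinases and 8.59 ± 1.15 for the 2 phosphatases after vehicle, and 873 ± 276 and 10.4 ± 0.833 after Dexmedetomidine (SD, n = 3 each). Pdk4 made up 79.4, 75.4 and 78.8% of the kinase sum with vehicle and 74.6, 86.1 and 87.1% with the drug, so it was the main kinase transcript in each library. These are transcript levels, and phosphorylation of the complex was not measured.

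In the malate-aspartate shuttle 4 of 5 log2 fold changes were below 0. The transaminases had the smallest p of the shuttle genes. Mitochondrial Got2 (ENSMUSG00000031672) measured 1043, 1166 and 922 CPM after vehicle and 894, 915 and 870.3 after the drug (log2 fold change -0.22, SE 0.12, edgeR adjusted p = 0.320). Cytosolic Got1 (ENSMUSG00000025190) measured 787, 868 and 775 and then 689, 756 and 693 CPM (-0.18, SE 0.11, adjusted p = 0.378). Neither pair of groups overlapped, and neither gene was called by any of the 3 tools. With the GC and length trend removed the log2 fold changes were -0.056 for Got2 and -0.096 for Got1. The oxoglutarate-malate carrier Slc25a11 (ENSMUSG00000014606) measured 481, 559.9 and 437 CPM after vehicle and 456, 435 and 432 after the drug, with overlap (-0.16, SE 0.13). The aspartate-glutamate carrier Slc25a12 was at -0.071 (95% interval -0.32 to 0.18) and cytosolic malate dehydrogenase, Mdh1, at 0.035 (-0.25 to 0.32).

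Ketone bodies are oxidised in 3 steps, and their genes had values on both sides of 0. Bdh1 (ENSMUSG00000046598), which oxidises hydroxybutyrate, measured 86.97, 80.3 and 82.6 CPM after vehicle and 82.9, 55.3 and 86.7 after the drug. Replicate 2 alone was low in its group, and the log2 fold change was -0.15 with all libraries and 0.025 without that replicate. Oxct1 (ENSMUSG00000022186), the transferase that activates acetoacetate and that the liver lacks, measured 1018, 1106 and 941 CPM and then 1042, 1143 and 1251, with overlap (log2 fold change 0.16, 95% interval -0.11 to 0.44, edgeR adjusted p = 0.476). Acat1 (ENSMUSG00000032047), the thiolase that splits acetoacetyl-CoA, measured 485, 557 and 476 and then 489, 542 and 526 CPM (log2 fold change 0.035, 95% interval -0.23 to 0.30).

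**Figure D2:**
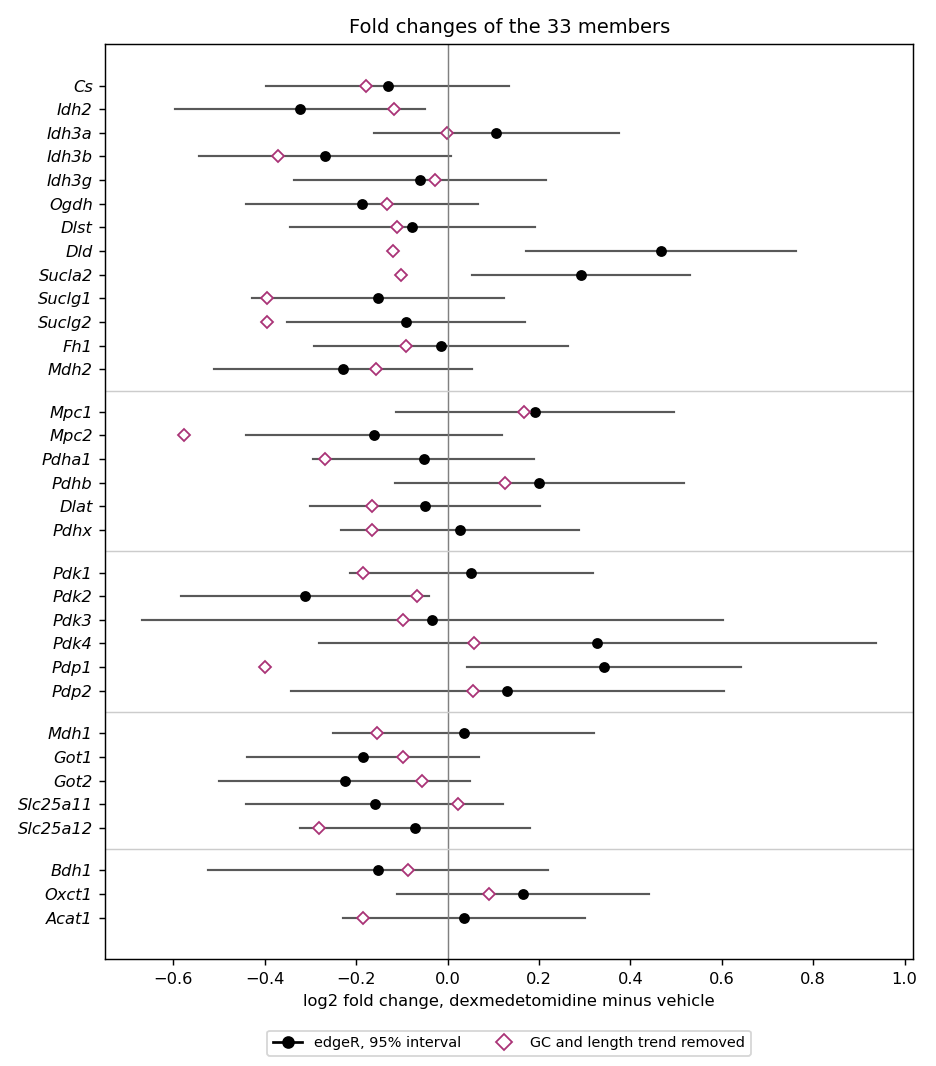
Black points are edgeR log2 fold changes, Dexmedetomidine minus vehicle, with 95% intervals, and open diamonds are the values after each library's trend with GC content and gene length was removed. The intervals that leave out 0 are those of Idh2, Dld, Sucla2, Pdk2 and Pdp1, and for each of these 5 the diamond is nearer to 0 or on the other side of it.

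Levels can be compared between members only per length, here as CPM per kilobase of the gene length in the deposited table. After vehicle the most abundant were Idh2 at 693 ± 55.1, Mdh1 at 675 ± 74.4, Pdk4 at 585 ± 33.6 and Mdh2 at 546 ± 70.4 CPM per kilobase (SD, n = 3), and each overlapped its neighbour in that order. After Dexmedetomidine Pdk4 was at 734 ± 277, Mdh1 at 692 ± 50.6 and Idh2 at 554 ± 47.1. At the low end Bdh1 (21.9 ± 0.887), Pdp1 (5.51 ± 0.718), Pdp2 (3.08 ± 0.757) and Pdk3 (0.859 ± 0.0697) were each apart from the next, all after vehicle. The span from Idh2 to Pdk3 was 807-fold. Of 32 neighbouring pairs in the vehicle order 20 had overlapping ranges, 16 members kept their rank in the Dexmedetomidine order, and no member moved by more than 4 ranks. The deposited lengths exceeded the longest coding transcript of GENCODE M21 by over 1.5-fold for 8 members, Mpc2 (3.71-fold) and Suclg1 (3.04-fold) most, and with transcript lengths members moved by up to 9 ranks, so middle ranks are uncertain.

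**Figure D3:**
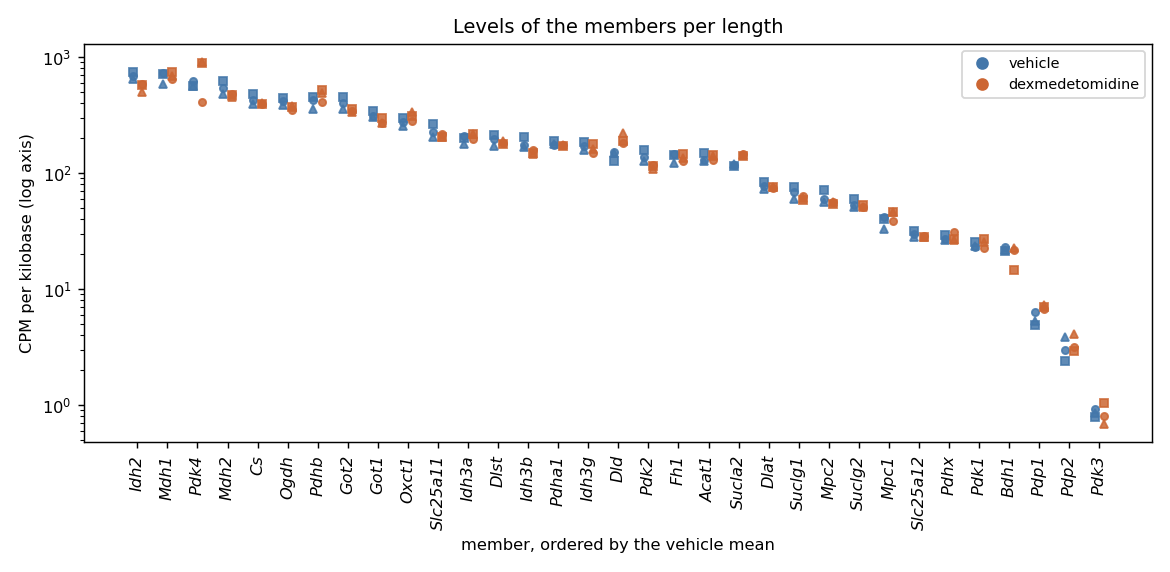
CPM per kilobase of each member in each library on a log axis, ordered by the vehicle mean (blue, vehicle; orange, Dexmedetomidine; circle, square and triangle for replicates 1, 2 and 3). Idh2, Mdh1 and Pdk4 lie at the top, with Pdp1, Pdp2 and Pdk3 under all the others.

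A ratio of 2 members within a library does not depend on how libraries are scaled, and 8 such ratios per length were compared by an exact two-sided permutation test, which with 3 libraries against 3 cannot give a p under 0.1. Sucla2 over Suclg2, the ATP-forming against the GTP-forming subunit, was 2.23, 1.90 and 2.35 with vehicle and 2.87, 2.69 and 2.84 with the drug, with no overlap. Idh2 over Idh3a was 3.28, 3.74 and 3.61 and then 3.01, 2.62 and 2.29, also apart. Mdh1 over Mdh2, the cytosolic against the mitochondrial enzyme, was 1.33, 1.16 and 1.24 and then 1.35, 1.59 and 1.51, narrowly apart. Each of these 3 had an exact p of 0.1, the smallest possible, and 0.267 adjusted over the 8 ratios. Each also holds a member whose own groups were apart (Sucla2, Idh2 or Mdh2), so the ratio is no separate support for that gene. The pairs differ in GC content: 45.7% for Mdh1 and 50.9% for Mdh2, and 55.6% for Idh2 and 46.9% for Idh3a, beside 43.2% for Sucla2 and 44.4% for Suclg2. With the GC and length trend removed, Mdh1 and Mdh2 had the same log2 fold change to 2 decimals, -0.16 and -0.16, where they had been at 0.035 and -0.23. Idh2 and Idh3a came to -0.12 and -0.000286, from -0.32 and 0.11, and Sucla2 and Suclg2 to -0.10 and -0.40, from 0.29 and -0.091.

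The ratio Pdk4 over Pdk2 was 4.54, 3.59 and 4.43 after vehicle and 3.53, 7.71 and 8.36 after Dexmedetomidine, where replicate 1 was below each vehicle library and the other two far above (exact p = 0.4, adjusted 0.533). Mpc1 over Mpc2 was 0.620 ± 0.0712 after vehicle and 0.789 ± 0.0939 (SD, n = 3, exact p = 0.2, adjusted 0.32) with overlap, and Bdh1 over Oxct1 was 0.0798 ± 0.00790 and 0.0640 ± 0.0155 (exact p = 0.2, adjusted 0.32). Pdp1 over Pdp2 (exact p = 0.5, adjusted 0.571) and Got1 over Got2 (exact p = 0.6) overlapped too.

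**Figure D4:**
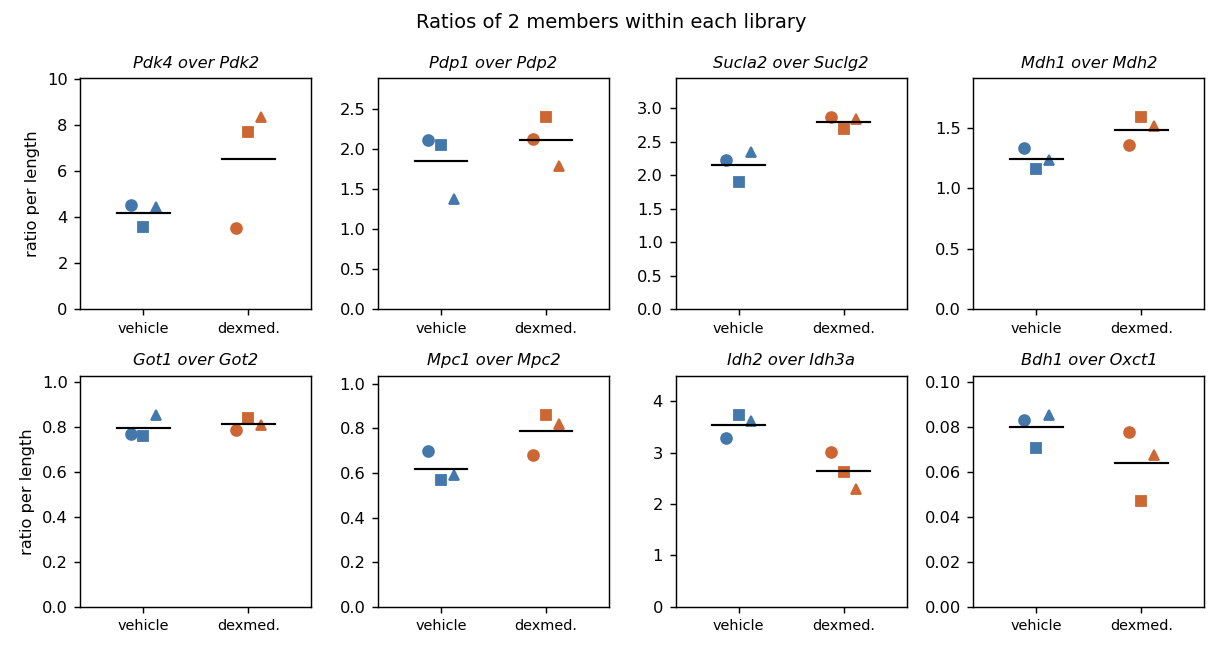
Each panel shows 1 ratio of 2 members per length in the 6 libraries (points as in the other plots) with group means as horizontal lines, on axes that start at 0. The groups are apart for Sucla2 over Suclg2, Mdh1 over Mdh2 and Idh2 over Idh3a, and Dexmedetomidine replicate 1 stands off from its group for Pdk4 over Pdk2.

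The members also varied among libraries of one group. Vehicle replicate 2 was the highest of its group for 22 of 33 members and vehicle replicate 3 the lowest for 24, with median deviations from each member's mean of 0.038, 0.12 and -0.076 log2 CPM in vehicle replicates 1, 2 and 3. In the Dexmedetomidine libraries these medians were -0.063, -0.00871 and -0.021, inside the vehicle range. The 33 members together took 2.19% to 2.22% of all gene counts after vehicle and 1.91% to 2.01% after Dexmedetomidine. As a share of nuclear gene counts alone the ranges overlapped, at 2.85% to 2.94% and 2.75% to 3.11%.

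Members with a lower GC content had higher fold changes (Spearman rho -0.63 over 33 members, and -0.63 over 14329 genes tested with a GC value, a description over genes that share the same libraries). The 11 members lowest in GC (39.2% to 45.8%) had a median log2 fold change of 0.035, and the 11 highest (48.2% to 56.9%) of -0.18, all 11 below 0. Pdp1, Dld and Sucla2 had a GC content of 39.2%, 40.6% and 43.2%, and Idh2 and Pdk2 of 55.6% and 56.9%. When each library's trend with GC and length was removed, log2 fold changes went to -0.12 for Dld, -0.10 for Sucla2, -0.40 for Pdp1, -0.12 for Idh2 and -0.067 for Pdk2. The first 3, above 0 before the step, were below 0 after it, and Pdk4 was at 0.057. No gene passed the edgeR threshold after it (0%, smallest adjusted p among members 0.294). At an unadjusted p under 0.05 were 5 members, against 12.6% of all genes. These 5 were all below 0: Idh3b (-0.37), Suclg1 (-0.40), Suclg2 (-0.40), Mpc2 (-0.58) and Pdp1. The step used deposited lengths, which were 3.71, 3.04 and 2.12 times the longest coding transcript for Mpc2, Suclg1 and Idh3b. For Suclg2 and Pdp1 they were 1.01 and 1.07 times it, and the part of length in these values was not tested. After the step 27 of 33 members were below 0, beside 54.2% of all genes, with a median of -0.12 beside -0.029. The 13 cycle enzymes were all below 0, from -0.40 to -0.000286 (Idh3a). The relation with GC over the members was then of the other sign (Spearman rho 0.47), while over all genes it was 0.049. The 11 members lowest in GC had a median of -0.18 after the step and the 11 highest of -0.096, so values after the step are not free of a relation with GC either.

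**Figure D5:**
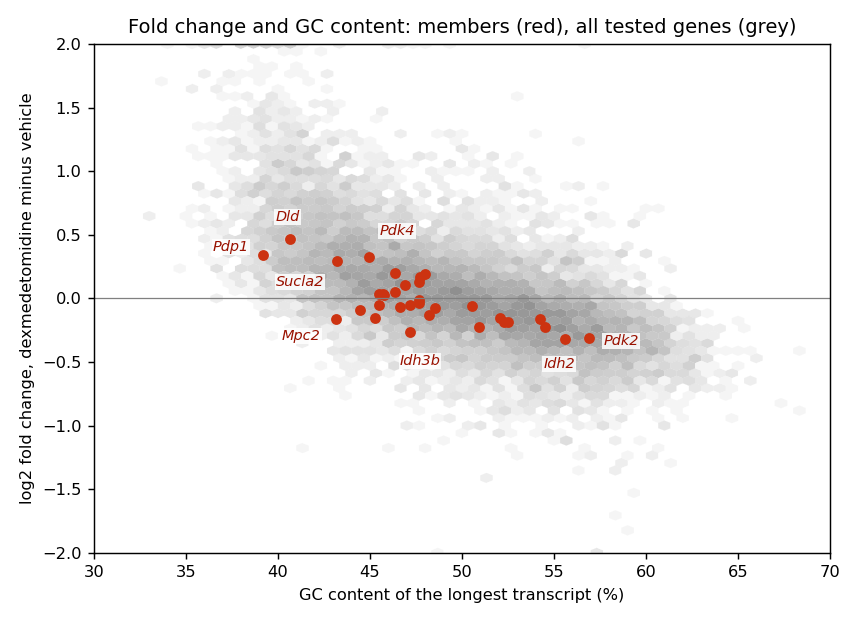
Log2 fold change against the GC content of the longest transcript, with all tested genes as grey bins (darker for more genes, values beyond 2 either way drawn at the edge) and the 33 members in red. The members run along the grey cloud, from Dld and Pdp1 at low GC to Idh2 and Pdk2 at high GC.

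A further 44 genes of the same pathways, none of them members, were listed for comparison, such as the remaining cycle enzymes, anaplerotic enzymes, lactate and monocarboxylate carriers and ketone synthesis. Of these, 40 passed the filter, 26 with a log2 fold change below 0 and 14 above (median -0.10), and none passed in edgeR. At an unadjusted p under 0.05 there were 8, 20% against 21.5% of all genes, 6 lower and 2 higher. DESeq2 called 2 and limma-voom 3. Gpd1, of the glycerol phosphate shuttle, the other route for cytosolic NADH, measured 40.5, 44.8 and 36.4 and then 29.5, 28.5 and 32.6 CPM (log2 fold change -0.42, edgeR adjusted p = 0.119). Dbt, the core of the branched-chain ketoacid dehydrogenase, which uses Dld as the members' complexes do, measured 33.9, 27.1 and 58.1 CPM after vehicle and 63.5, 74.6 and 71.9 after the drug. All Dexmedetomidine libraries were higher, and vehicle replicate 3 lay nearest to them. Dbt had a log2 fold change of 0.82 (SE 0.26, edgeR adjusted p = 0.132), which was 0.37 with the trend removed. Without vehicle replicate 3 its edgeR adjusted p was 0.0109, in a fit where 8.31% of all genes passed. Since the library left out was the vehicle library nearest to the drug values, that p is no separate support. The succinate dehydrogenase subunits act in both the cycle and the respiratory chain and are named here whatever their p. Their log2 fold changes were -0.22 (Sdha), -0.15 (Sdhb), -0.20 (Sdhc) and -0.27 (Sdhd), with edgeR adjusted p of 0.313, 0.569, 0.419 and 0.278. Sdha had groups apart, and Sdhb, Sdhc and Sdhd overlapped. With the trend removed, values in the same order were -0.26, -0.00325, -0.23 and -0.18.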

How the data were processed

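The deposited file holds unnormalized read counts for each gene in 6 libraries, beside gene lengths. Per the labels' protocols, 1 µg of RNA per sample was poly-T selected and prepared with a NEBNext Ultra kit. The tools Trim Galore and HTSeq and the build mm9 are named, per the submitters' processing notes. The aligner, annotation and strand setting were not given in the sources used, so reads of the 8 members whose exons overlap a gene on the other strand (Bdh1, Got2, Idh3b, Mdh1, Mpc1, Oxct1, Pdha1 and Slc25a11) are uncertain.

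Symbols (32897 of 37620 genes), GC content of the longest transcript and overlaps came from GENCODE M21 on GRCm38, another build than mm9, so no coordinates of counted genes are given. The 5 summary rows naming no gene were left out (alignments at more than 1 place were 28.0% to 39.5% of reads, reads outside genes 2.33% to 3.63%, ambiguous reads 1.83% to 2.37%, the remaining 2 rows 0). Genes were tested with edgeR 4.0.16 in R 4.3.3 (quasi-likelihood F test, robust, filterByExpr, TMM), all 6 libraries, Benjamini-Hochberg over 14738 genes, threshold 0.05. Log2 fold changes are Dexmedetomidine minus vehicle, the SE is the fold change over the root of F, and intervals are 95%. CPM use TMM-scaled totals of the deposited counts.

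GC and length trends were natural splines (5 df each) of each library's log2 CPM deviations (prior count 2), used as offsets. DESeq2 1.42.0, limma 3.58.1 (voom), other filters and scalings, a replicate block and leaving out each library were alternatives. Fits were tested on simulated counts drawn independently for each gene. Those counts held no shift shared by many genes among libraries of one group, so they cannot speak to such shifts here. Every pair of libraries differed by more than sampling noise, measured as chi-square per degree of freedom over genes, mitochondrially encoded ones included. Dexmedetomidine replicate 1 gave 73.0, 199 and 62.7 against vehicle replicates 1, 2 and 3. Against Dexmedetomidine replicates 2 and 3 it gave 116 and 144. By this measure, on counts scaled by totals alone, it was nearer to vehicle replicates 1 and 3 than to its own group. On the main axis of variance of TMM-scaled log2 CPM (47.3% of variance), the order was another. There it was at 17.6, nearest to Dexmedetomidine replicate 2 at 28.1, with replicate 3 at 46.6. Vehicle replicates 1, 2 and 3 were at -26.3, -69.8 and 3.67. The labels do not say that samples came from separate animals, so the spread behind each p-value may be technical. Per-library values were given for up to 3 members with the smallest p in each role group and for Cs, Pdk4, Oxct1 and Bdh1, and other pathway genes were named from the 3 with the smallest p, with some items not reported here. Members, lists and tests were chosen with earlier results of these data known.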

Additional observations from a re-analysis of the deposited data

How the results depend on the processing

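No member passed the edgeR threshold under any of the edgeR alternatives, DESeq2 called 1 (Dld) and limma-voom 3 (Idh2, Dld and Sucla2), and the count was 0 with each library left out. Over all genes the count was 0 in edgeR and also with DESeq2 size factors, a mean CPM of at least 5, library sizes without mitochondrially encoded genes and the GC and length trend removed, but 406 with no filter, 1247 in DESeq2 and 2107 in limma-voom, and 0 to 1251 with 1 library left out (1251 without vehicle replicate 3, 7 and 5 without Dexmedetomidine replicates 1 and 2). With the replicate block it was 636, and 152 with the block and the trend removed, none of them members. Same-numbered libraries had correlations of their deviations of -0.055, 0.036 and 0.15, and 3 of 6 libraries correlated best with their own number. With 3 libraries per group this check cannot decide whether samples were paired, and the labels state no pairing. The median of the members stayed between -0.12 and -0.014. Pdk3 has no value with a mean CPM of at least 5.

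Of the 33 members, 18 had the same sign under all 15 alternatives. With the trend removed the sign changed for Idh3a (-0.000286), Dld (-0.12), Sucla2 (-0.10), Mdh1 (-0.16), Pdhx (-0.17), Pdk1 (-0.18), Pdp1 (-0.40), Acat1 (-0.18) and Slc25a11 (0.022). With the replicate block as well, values were -0.12 for Dld, -0.099 for Sucla2, -0.15 for Mdh1, -0.17 for Pdhx, -0.18 for Pdk1, -0.00863 for Pdk4, -0.39 for Pdp1, -0.17 for Acat1 and 0.026 for Slc25a11. Fh1 was at 0.00505 with a mean CPM of at least 5. With 1 library left out the sign changed for Fh1 (-0.090 to 0.037), Mdh1 (-0.053 to 0.082), Dlat (-0.093 to 0.00705), Pdhx (-0.042 to 0.068), Pdk1 (-0.00243 to 0.11), Pdk3 (-0.22 to 0.095), Pdp2 (-0.025 to 0.33), Bdh1 (-0.27 to 0.025) and Acat1 (-0.00617 to 0.11). The cause of these changes was not tested. The 8 ratios kept their direction under a prior count of 0.5 and with each library left out. They were not recomputed as ratios with the trend removed, where Mdh1 (-0.16) and Mdh2 (-0.16) had equal log2 fold changes to 2 decimals.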
